A study of Mus musculus with 2 samples.

Results

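Nuclei carrying the polycystin genes Pkd2l1 and Pkd1l2, the markers of the cerebrospinal fluid (CSF)-contacting neurons of the spinal cord, were described across genes in single-nucleus RNA-sequencing libraries of injured mouse cord. Members were chosen by these transcripts: a barcode was one when it held at least 2 unique molecular identifiers (UMIs, counted transcripts) of Pkd2l1 and Pkd1l2 together, at least 1 of them Pkd2l1. The rule found 271 members among 23814 deposited barcodes, 53 in the core library and 218 in the distal library. The mice were iNeuroD1GFP, transgenic mice made for inducing NeuroD1, labelled male and 8 weeks old, and injured at postnatal day 60. Tamoxifen, 100 mg/kg per day, was given to all on days 5 to 8 of the injury, and cords of 3 mice were taken on day 10. Each region, the lesion core and a second one that the design text calls distal and the extraction protocol peri-injury, gave 1 library. The labels do not say if the 3 mice were pooled, the promoter or cell type that drives the transgene is not named in the labels used here, and no uninjured or uninduced library was analysed here, so all nuclei share injury and induction.

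CSF-contacting neurons sit around the central canal and send a short process into the CSF that ends in a bulb with microvilli and a cilium. They are known as inhibitory neurons that use GABA, sense the acidity and the flow of the CSF, and open the channel formed by the polycystin Pkd2l1. The transcription factors Gata2, Gata3 and Tal1 are known to specify them, and the actin-based protrusion genes Myo3b and Espn are among their markers. Members were compared with inhibitory barcodes of the same library, which held at least 2 UMIs of Gad1, Gad2, Slc6a5 and Slc32a1 and none of Pkd2l1 or Pkd1l2 (858 in the core library, 245 in the distal library). Levels are given as CPM, the UMIs of a gene as counts per 1000000 UMIs summed over a set of barcodes. Deeper barcodes therefore weigh more in them. With 1 library per region there is no replicate and no test, and the 95% intervals given after the values cover counting error only.

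Promoters of 3 genes that mark these nuclei in the results are printed to show the letters upstream of them: Pkd1l2 from the rule, Myo3b with 1 of the largest ratios, and Slc26a4, whose ratio was as large. They are RefSeq sequences on GRCm38.p6, each 250 bases before to 50 after the start of the gene, on the gene's own strand, and Pkd2l1 was not matched. Capitals mark AGATAA or TGATAA on either strand, which are among the letters bound by GATA factors. No other form was searched, and 18.6% of the 32851 promoters of that table hold at least 1 of these.
Pkd1l2, chr8:117082400-117082699, minus strand: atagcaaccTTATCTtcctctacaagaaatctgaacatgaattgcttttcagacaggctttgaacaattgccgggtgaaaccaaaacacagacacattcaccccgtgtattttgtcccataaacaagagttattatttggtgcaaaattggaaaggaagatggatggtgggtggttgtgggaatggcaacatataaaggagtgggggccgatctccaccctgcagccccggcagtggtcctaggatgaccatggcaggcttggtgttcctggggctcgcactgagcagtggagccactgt
Slc26a4, chr12:31559935-31560234, minus strand: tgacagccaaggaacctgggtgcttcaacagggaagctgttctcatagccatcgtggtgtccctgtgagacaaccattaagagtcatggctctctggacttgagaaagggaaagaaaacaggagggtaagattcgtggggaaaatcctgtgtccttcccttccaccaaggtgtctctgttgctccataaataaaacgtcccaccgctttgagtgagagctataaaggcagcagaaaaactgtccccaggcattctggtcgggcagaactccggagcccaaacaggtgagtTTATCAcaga
Myo3b, chr2:70038876-70039175, plus strand: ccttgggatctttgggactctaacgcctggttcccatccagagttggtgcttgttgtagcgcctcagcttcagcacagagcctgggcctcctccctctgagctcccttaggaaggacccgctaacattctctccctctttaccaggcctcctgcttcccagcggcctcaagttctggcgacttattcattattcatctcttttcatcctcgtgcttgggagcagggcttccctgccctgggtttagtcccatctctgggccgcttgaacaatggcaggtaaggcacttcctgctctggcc
The Pkd1l2 match lies 241 bases before the start and the Slc26a4 match 40 bases after it, both on the strand opposite to the gene, and the Myo3b window holds none. Among 11 promoters of 9 of the 12 genes singled out below, 1 held a match, against 18.6% of all promoters.

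The libraries differed from each other, and the distal library from its label, before any gene of interest was considered. The core library held 30469263 UMIs with a median of 1303 per barcode, and the distal library 19049572 UMIs with a median of 1743. They shared 38 barcodes, none of a member. Both are labelled male, yet Xist, the transcript of the inactive X chromosome of females, was found in 4256 of 7443 distal barcodes and in 15 of 16360 core barcodes, while any of 4 Y-linked genes was found in 2313 and 5855. Among members with both polycystin genes, Xist was found in 45 of 77 distal barcodes and in 0 of 44 core barcodes, which allows a share of up to 6.82%. Xist and a Y-linked gene were held together by 1279 distal and 5 core barcodes, and by 26 of these 77 distal members. What causes this was not tested. The caudal gene Hoxc10 gave 1084 UMIs in the core library and 47 in the distal one, so region, animals and cord level cannot be told apart in any comparison of core with distal.

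Most distal members, 123 of 218, held more oligodendrocyte-marker than neuron-marker transcripts. A barcode was called richer in oligodendrocyte markers when it held at least 5 UMIs over 6 oligodendrocyte genes, among them Mog, Mag, Mobp, Mbp and Cldn11, and more of them than of the neuronal genes Rbfox3, Snap25, Syt1 and Meg3. Of 141 distal members with Pkd2l1 but no Pkd1l2, 110 (78.0%) were of that kind, with a median of 8409 CPM of oligodendrocyte markers and 2761 CPM of neuron markers. Of 77 distal members with both genes, 13 (16.9%) were, with medians of 3344 and 11434.5 CPM. In the core library the medians were 119 and 17534 CPM in the 44 both-gene members, of which 0 were richer in oligodendrocyte markers, and 2 of the 9 Pkd2l1-only members were. The label thus went against the markers of the Pkd2l1-only members of the distal library, which are called by their rule here.

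**Figure D1:**
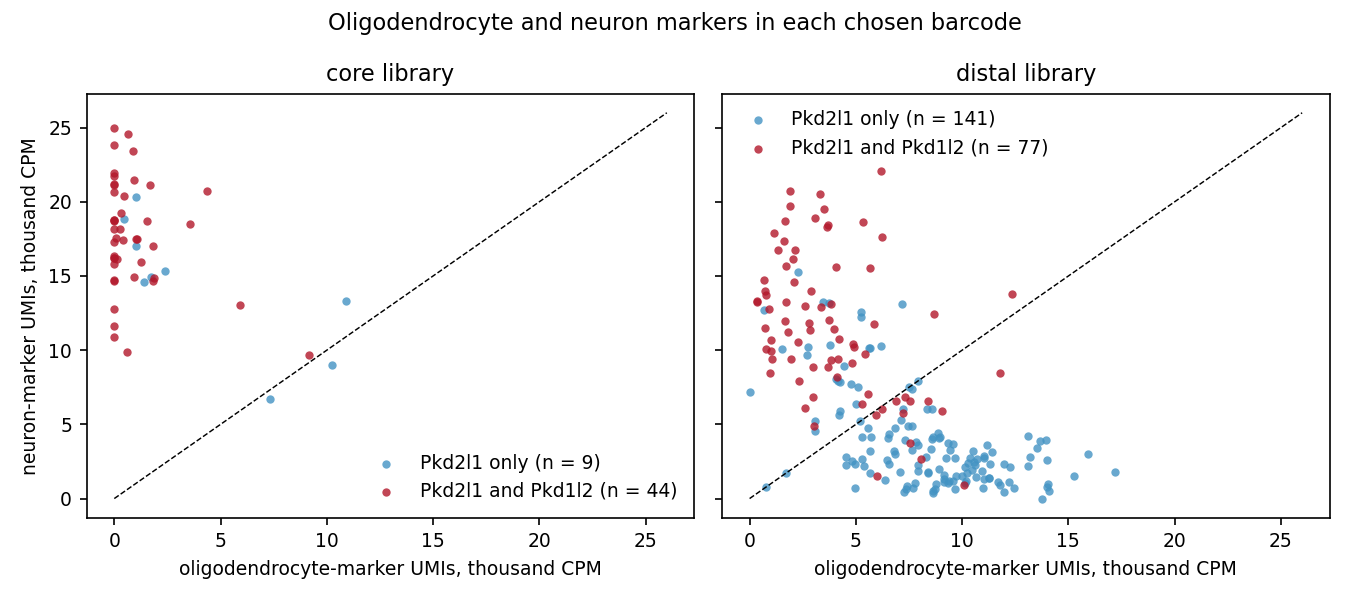
Oligodendrocyte-marker UMIs (x axis) against neuron-marker UMIs (y axis), both in CPM divided by 1000, with 1 point per member barcode, coloured by whether Pkd1l2 was found, and a dashed line of equality. The 141 Pkd2l1-only members of the distal library lie mostly below the line, and the 44 both-gene members of the core library all lie above it.

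The marker UMIs split the members in the same way. With exactly 2 marker UMIs there were 117 distal members, and with 4 or more there were 73, against 12 and 40 in the core library. Just inside the threshold, at 2 UMIs, 89 of the 117 distal members were richer in oligodendrocyte markers and 2 held a Myo3b UMI. Just outside it, at 1 UMI, 375 of 646 distal barcodes were richer in oligodendrocyte markers and 10 held Myo3b. Among distal members with 4 or more marker UMIs, 52 of 73 held Myo3b. These counts describe the rule and support nothing about the members.

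**Figure D2:**
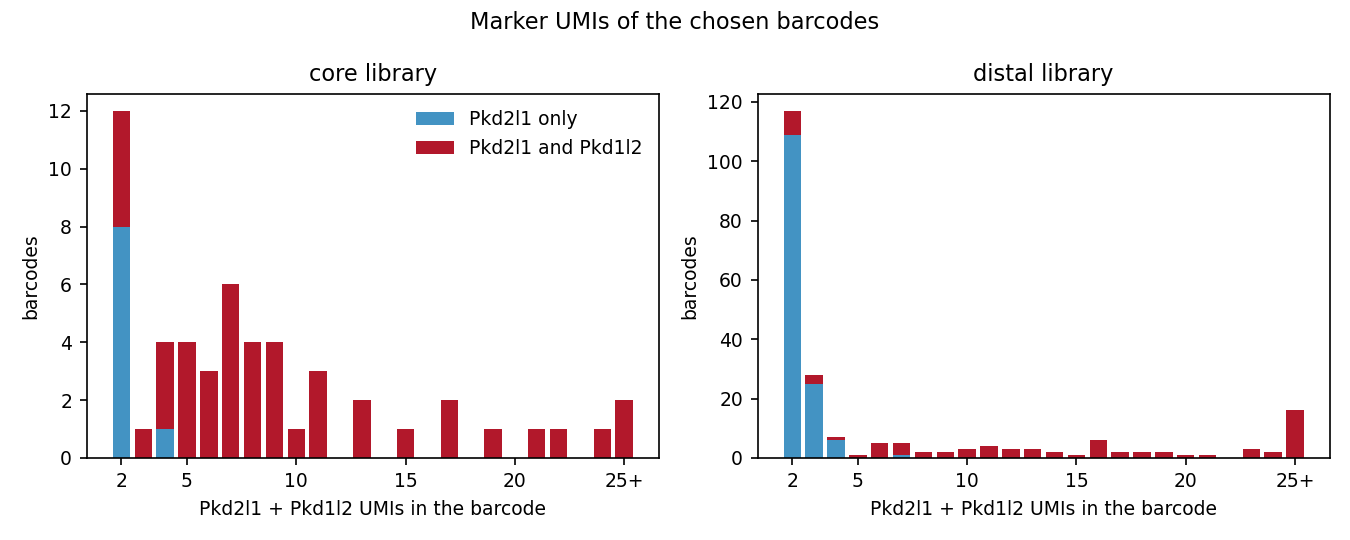
Number of member barcodes (y axis) by their summed Pkd2l1 and Pkd1l2 UMIs (x axis, 25 or more pooled), in each library, with Pkd2l1-only members in blue and both-gene members in red. At 2 UMIs stand 117 distal and 12 core members.

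Outside the rule, 561 distal barcodes held a single Pkd2l1 UMI and no Pkd1l2, and 348 of them were richer in oligodendrocyte markers. A single Pkd1l2 UMI and no Pkd2l1 was held by 85 distal barcodes, of which 27 were. In the core library the numbers were 7 of 169 and 0 of 139. Summed over all 141, 110 of them richer in oligodendrocyte markers, Pkd2l1-only distal members resembled oligodendrocyte-marker barcodes without a polycystin UMI. Genes tested, those with a mean of at least 50 CPM, numbered 3703. Of these, 27 were at least 2-fold higher (0.729%) and 2 at least 2-fold lower (0.054%) than in 2355 such barcodes. Median depths were 3783 and 1722 UMIs. Against all distal barcodes without a polycystin UMI, 37 of 3788 genes were higher (0.977%) and 160 lower (4.22%). Among the 27 were Glra1, a glycine receptor subunit, at 83.4 against 28.7 CPM, Pde10a, a phosphodiesterase, at 378 against 143 CPM, and the neuronal RNA-binding gene Celf4 at 263 against 108 CPM. Against inhibitory barcodes the same members had 532 of 3793 genes higher (14%) and 562 lower (14.8%). Myo3b stood at 2.26 CPM in these members.

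Both-gene members made up 0.269% of core barcodes (0.195 to 0.361, Clopper-Pearson) and 1.03% of distal barcodes (0.817 to 1.29), a distal-over-core ratio of 3.85 (2.62 to 5.70). All members together gave 0.324% (0.243 to 0.424) and 2.93% (2.56 to 3.34), a ratio of 9.04 (6.67 to 12.4), and Pkd2l1-only members gave a ratio of 34.4 (17.6 to 76.9). The order of the libraries was the same in each set, but its size rested on which members were counted.

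Over all members, oligodendrocyte genes were among those furthest above inhibitory barcodes in both libraries. Genes at least 2-fold higher numbered 72 of 3601 (2%) in the core and 408 of 3791 (10.8%) in the distal library, and genes at least 2-fold lower 28 (0.778%) and 384 (10.1%). In both libraries 45 of 3163 genes were higher (1.42%) and 9 lower (0.285%), and 1 (0.0316%) went past 2-fold in opposite directions. The 16 genes with the largest ratios by the naming rule included Rnf220, Neat1, Prr5l, Adipor2, St18, Sox2ot, Mbp, Pard3b, Gab1, Meis2, Map7, Qk, Nrbp2, Cdc37l1 and Tspan9, among them the myelin gene Mbp and the myelin regulators St18 and Qk. Leaving out every barcode richer in oligodendrocyte markers lowered the distal counts to 120 higher and 53 lower. The both-gene members are therefore described from here on, a choice made after the values had been seen.

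Besides the rule genes, the 121 both-gene members held UMIs of the other 5 CSF-contacting neuron markers (Myo3b, Espn, Gata3, Gata2 and Tal1) in both libraries. Some UMIs of all 5 were found in core inhibitory barcodes too, and of all but Gata2 in distal ones. Finding a UMI in a set thus does not by itself set the members apart. Levels and ratios are given below, and the intervals of the Tal1 ratios include 1. Against inhibitory barcodes, 82 of 3598 genes were at least 2-fold higher (2.28%) and 46 lower (1.28%) in the core library, and 208 of 3799 were higher (5.48%) and 158 lower (4.16%) in the distal library. In both libraries 36 of 3203 genes were higher (1.12%) and 5 lower (0.156%), and 0 went in opposite directions. Against oligodendrocyte-marker barcodes, 280 of 3222 genes were at least 2-fold higher in both libraries (8.69%), 83 lower (2.58%) and 1 opposite (0.031%). Of the 36, 13 were also at least 2-fold above oligodendrocyte-marker barcodes in both libraries, among them Myo3b, Slc26a4, Pard3b, Meis2, St6galnac5, Nrp2 and Chrna7. A further 19, among them Mbp, Mag, Mobp, St18 and Qk, lay below the oligodendrocyte-marker level in the distal library. Beside these stands the summed oligodendrocyte-marker level of the both-gene members. It was 874 CPM against 296 in inhibitory barcodes in the core library and 4634 against 2046 in the distal library. Astrocyte markers summed to 120 against 55.9 and 353 against 194 CPM, and myeloid markers to 49.2 against 36.5 and 170 against 114 CPM. Endothelial markers summed to 16.4 against 7.58 and 49.4 against 11.3 CPM, and fibroblast markers to 5.46 against 1.97 and 39.5 against 7.31 CPM. Oligodendrocyte progenitor markers were at 852 against 780 and 661 against 890 CPM. The part of these levels in the result was not tested. The counts in both libraries were 76 higher and 48 lower without the barcodes above 3 times the median UMIs of their set, 11 of the both-gene members in each library. They were 22 and 20 when each gene was computed without the member holding most of its UMIs. The 11 deep members had median depths of 11279 (core) and 19117 (distal) UMIs, within sums of 183032 and 405223 UMIs. They thus weigh heavily in the both-gene levels and ratios.

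**Figure D3:**
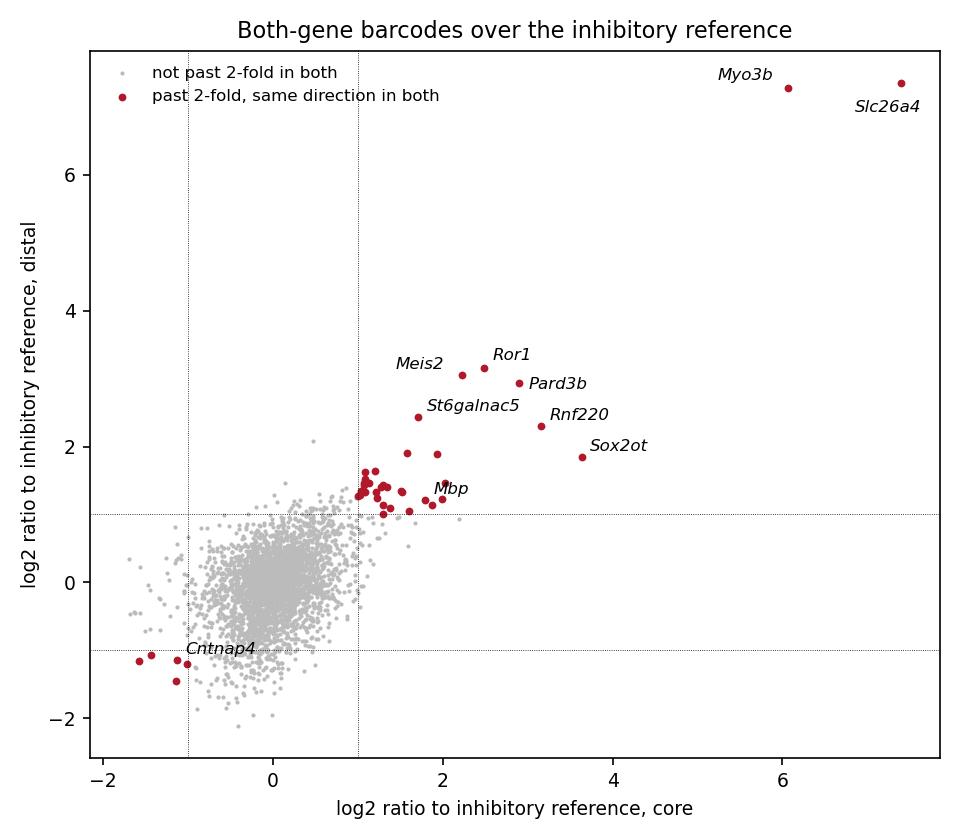
Log2 ratio of both-gene members to inhibitory barcodes in the core library (x axis) and the distal library (y axis), with 1 point per gene tested in both (3203) and dotted lines at 2-fold. The 36 genes higher and 5 lower in both libraries are red, and Myo3b and Slc26a4 stand far from the rest.

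The core comparison had a particular reference. Inhibitory barcodes were set against all barcodes of their library without a polycystin UMI, which include the inhibitory barcodes themselves. They differed by 2-fold in 0 of 3533 genes in the core library, with a median absolute log2 ratio of 0.09. In the distal library 48 of 3782 genes were higher and 143 lower. Neuron markers were at a median of 17778 CPM over all core barcodes, near the 17534 CPM of the both-gene members. Against all barcodes without a polycystin UMI, both-gene members had 60 of 3612 genes higher (1.66%) and 38 lower (1.05%) in the core library, and 55 of 3842 higher (1.43%) and 18 lower (0.469%) in the distal library. Genes that stood out against inhibitory, oligodendrocyte-marker and polycystin-free barcodes alike are therefore given first.

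Myo3b and Espn, both genes of actin-filled protrusions, stood far above the reference. Myo3b, an unconventional myosin of microvilli and stereocilia (chromosome 2, 70039126 to 70429198, plus strand, GRCm38), was at 339 CPM (260 to 434) in core and 619 CPM (545 to 701) in distal both-gene members, against 5.06 and 3.99 CPM in inhibitory barcodes. The ratios were 67.0 (39.1 to 120) and 155 (70.3 to 427), and the intervals of members and reference lay far apart in both libraries. Myo3b UMIs were found in 61.4% of core and 68.8% of distal both-gene members, in 1.86% and 2.45% of inhibitory barcodes, and in 1.9% and 0.51% of oligodendrocyte-marker barcodes, at median depths of 1721.5 and 2696, 3053 and 4734, and 1396 and 1722 UMIs. After each barcode was thinned to 1000 UMIs the shares were 30.6% and 50.7% in both-gene members, 0.504% and 0.415% in inhibitory and 2.44% and 0.196% in oligodendrocyte-marker barcodes. Espn, the actin-bundling protein espin, was at 71.0 CPM (37.8 to 121) and 160 CPM (124 to 204) against 2.53 and 2.66 CPM, ratios of 28.1 (11.1 to 74.5) and 60.3 (22.5 to 228). Of the 20 genes listed for microvilli and stereocilia, 2 were abundant enough to be tested in both libraries and 1, Myo3b, was higher in both, while Espn met the level minimum in the distal library alone.

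Slc26a4, the anion exchanger pendrin known from the inner ear and thyroid (chromosome 12, 31519827 to 31559969, minus strand), was at 142 CPM (92.8 to 208) in core and 109 CPM (78.9 to 146) in distal both-gene members. Inhibitory barcodes held 3 and 1 UMIs of it, or 0.843 and 0.665 CPM, so the ratios were 169 (51.7 to 870) and 163 (27.8 to 6595). It had a UMI in 17 of the 44 and 21 of the 77 both-gene members (19.4% and 14.5% after thinning), and in 0% and 0.17% of oligodendrocyte-marker barcodes. The gene was in no list and was chosen after its values had been seen. It was 1 of 12 genes at least 3-fold above inhibitory, oligodendrocyte-marker and polycystin-free barcodes in both libraries, with at least 3 UMIs in each and 10 in all. The others included Myo3b, Espn, Gata3, Meis2, Pard3b, St6galnac5, Crb1, Spag16, Myzap and Gm43948, the last an antisense gene that overlaps Pdzrn3. Of these 12 genes, at least 3 were found in 36 of 44 core (81.8%) and 63 of 77 distal (81.8%) both-gene members, and in 50 of 858 and 27 of 245 inhibitory barcodes, which describes the choice of genes.

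**Figure D4:**
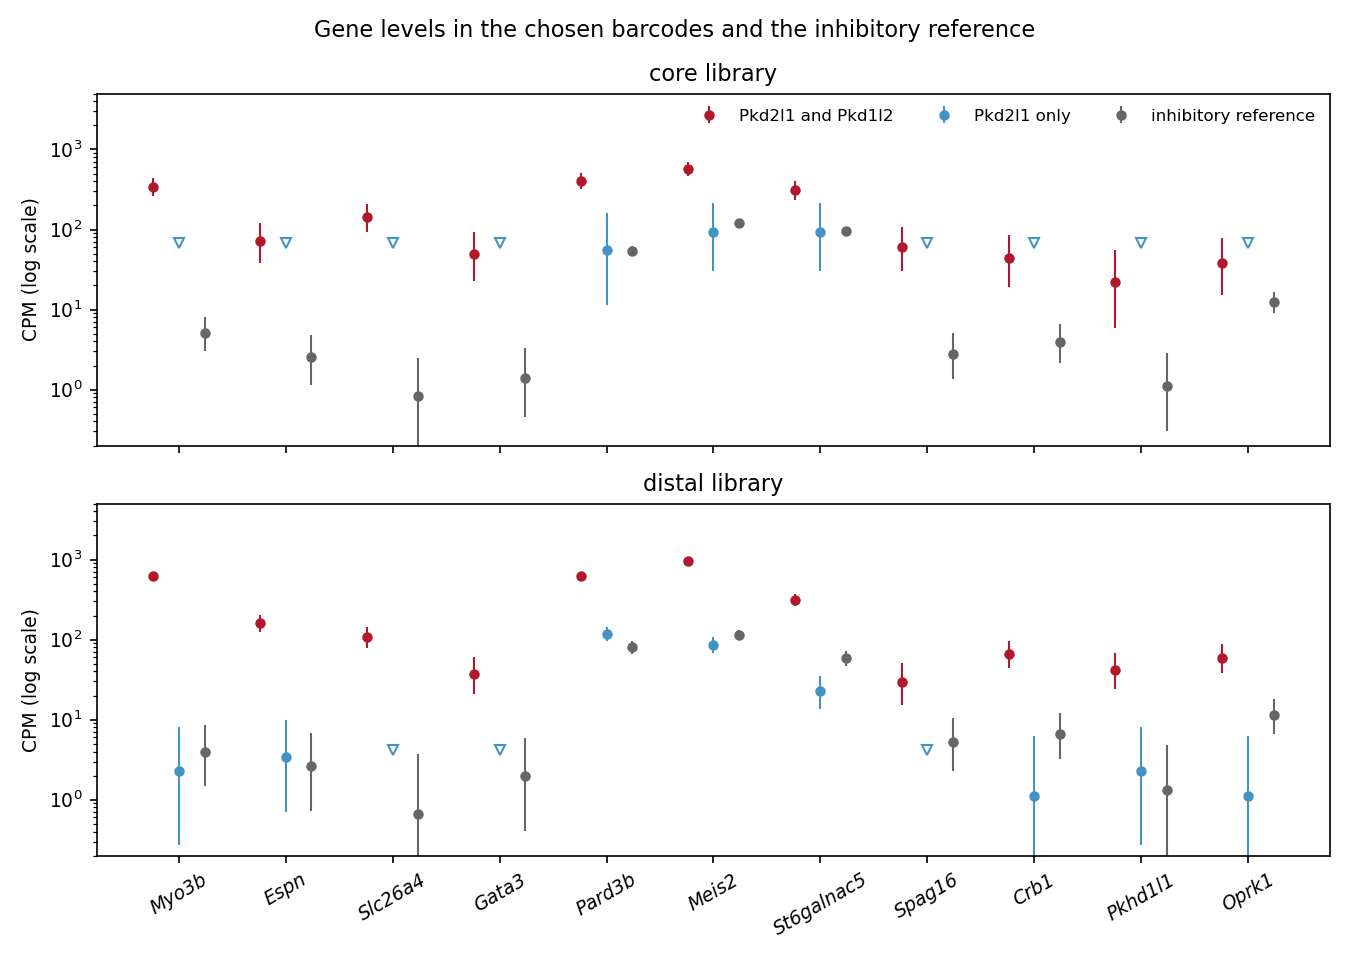
CPM (y axis, log scale) of 11 genes (x axis) in both-gene members, Pkd2l1-only members and inhibitory barcodes of each library. Bars are exact Poisson 95% intervals, and open triangles mark the upper limit where no UMI was found; Myo3b stands at 339 and 619 CPM in both-gene members and at 5.06 and 3.99 CPM in inhibitory barcodes.

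Pard3b, Crb1 and Myzap came from the 12 genes singled out after the values had been seen. Pard3b, a Par-3 family scaffold, was at 404 CPM (317 to 508) and 617 CPM (543 to 698) against 54.5 and 80.5 CPM, ratios of 7.42 (5.6 to 9.75) and 7.67 (6.15 to 9.61). It was found in 72.7% and 74.0% of both-gene members and in 15.2% and 19.2% of oligodendrocyte-marker barcodes. Crb1, a Crumbs protein of the apical membrane, gave 8 UMIs at 43.7 CPM (18.9 to 86.1) in core and 27 UMIs at 66.6 CPM (43.9 to 96.9) in distal both-gene members, with ratios of 11.1 (4.04 to 28.4) and 10.0 (4.70 to 23.2). Myzap, a protein of adherens junctions in the heart, gave 7 and 21 UMIs, with ratios of 19.5 (5.82 to 65) and 39.0 (9.53 to 343). Of the 3, Pard3b alone was abundant enough to be counted as past 2-fold, and Crb1 and Myzap, averaged over members and inhibitory barcodes, stayed under 50 CPM in both libraries.

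Of the transcription factors, Gata3 gave 9 UMIs at 49.2 CPM (22.5 to 93.3) in core and 15 UMIs at 37.0 CPM (20.7 to 61.1) in distal both-gene members, ratios of 35.0 (10.5 to 133) and 18.6 (5.25 to 100) to inhibitory barcodes. Gata2 gave 3 and 11 UMIs, with a ratio of 14.6 (2.14 to 86.2) in the core library. In the distal library inhibitory barcodes held 0 UMIs of it. With 3 counted in their place the ratio was 13.6, a value that leaves out the counting error of the 11 UMIs. Tal1 gave 2 and 4 UMIs, and its intervals, 0.88 to 67.9 and 0.589 to 13.8, include 1. Nkx2-2 gave 2 and 5 UMIs with ratios of 4.86 (0.503 to 24.4) and 2.32 (0.597 to 8.04), Nkx6-1 gave 0 and 2, and Foxa2 gave 0 and 1. None of the 17 transcription factors listed for these neurons reached the level of 50 CPM needed to be counted in either library. Sox2, a neural progenitor factor, was at 21.9 and 69.1 CPM against 3.09 and 18.0 CPM, but stood higher still in oligodendrocyte-marker barcodes, at 105 and 103 CPM.

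The more abundant regulators with a higher level included Meis2, a homeodomain transcription factor. Meis2 was at 574 CPM (469 to 694) and 950 CPM (858 to 1049.9) against 122 and 114 CPM, ratios of 4.70 (3.76 to 5.82) and 8.31 (6.92 to 10.0), and stood at 43.1 and 73.2 CPM in oligodendrocyte-marker barcodes. Nfix, of the nuclear factor I family, was at 92.9 and 215 CPM against 31.2 and 57.2 CPM, but lay at 209 and 220 CPM in oligodendrocyte-marker barcodes. It was the single gene higher in both libraries among the 7 tested of 25 dorsal and ventral inhibitory lineage factors. Pax2, a factor of dorsal inhibitory neurons, was at 87.4 and 34.5 CPM against 132 and 111 CPM, with ratios of 0.664 (0.376 to 1.09) and 0.311 (0.166 to 0.537).

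Other genes listed with the polycystins, not all of them polycystins, followed no single pattern. Pkhd1l1, a fibrocystin-like membrane protein, gave 4 UMIs at 21.9 CPM (5.95 to 56.0) and 17 UMIs at 42.0 CPM (24.4 to 67.2), ratios of 19.5 (3.62 to 104) and 31.5 (7.49 to 282). Pkd1l3 gave 2 and 17 UMIs, with ratios of 1.39 (0.16 to 5.51) and 3.71 (1.78 to 7.73). Pkd1 and Pkd2, the widely expressed polycystins, were the 2 of 8 listed genes tested, and neither went past 2-fold: Pkd1 was at 492 and 202 CPM against 414 and 271 CPM, and Pkd2 at 38.2 and 86.4 CPM against 61.8 and 67.2 CPM.

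Cilium genes did not move as a group. Of 19 primary cilium genes, 6 were tested in both libraries and 0 went past 2-fold in either direction, with medians of the log2 ratio of -0.00 in the core and 0.10 in the distal library beside 0.03 and 0.07 over all genes tested. Spag16, a protein of the motile axoneme, gave 11 and 12 UMIs at 60.1 and 29.6 CPM, ratios of 21.4 (8.25 to 56.2) and 5.57 (2.09 to 15.7). Spag16 overlaps 5 annotated genes on the opposite strand, and no source used here states whether counting used strand. The same limit holds for other genes named here, among them Pard3b (6 such genes), Sox2ot (6), St6galnac5 (4), Rnf220 (3) and Gata3 (2). Ependymal markers, of the ciliated cells beside these neurons, summed to 27.3 and 14.8 CPM against 24.4 and 23.3 CPM in inhibitory barcodes. Foxj1 was at 0 in the core library, and Tmem212, Ccdc153, Rarres2 and Dnah12 were at 0 in both.

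Ion channels and receptors gave a few genes above the reference. Asic4, of the acid-sensing channel family, gave 5 and 15 UMIs with ratios of 8.11 (2.24 to 24.7) and 5.57 (2.34 to 13.9), and Asic1 had ratios of 1.92 (1.02 to 3.33) and 1.93 (1.15 to 3.16). Of 28 acid, ATP and mechanical channels, 8 were abundant enough to be tested in both libraries, Asic4 not among them. Of these 8, 0 were past 2-fold in both. Of 39 potassium and HCN channels 27 were tested in both, and 0 of these 27 were past 2-fold in both. Kcnq3 had ratios of 1.68 (1.48 to 1.90) and 2.15 (1.97 to 2.34). The calcium-activated channel Kcnn3, not abundant enough to be among the 27, had 2.20 (1.10 to 4.01) and 2.89 (1.33 to 6.14). The calcium channel subunit Cacnb2 had 1.46 (1.22 to 1.74) and 2.11 (1.87 to 2.37).

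Chrna7, the alpha-7 nicotinic acetylcholine receptor, was at 137 CPM (88.4 to 202) and 121 CPM (89.5 to 160) against 64.6 and 41.9 CPM, ratios of 2.11 (1.34 to 3.20) and 2.89 (1.95 to 4.26). It was the single gene past 2-fold in both libraries among 8 tested of 33 acetylcholine and monoamine genes. Oprk1, the kappa opioid receptor, gave 7 and 24 UMIs with ratios of 3.09 (1.18 to 6.93) and 5.24 (2.70 to 10.4), while the mu receptor Oprm1 had 0.603 (0.258 to 1.21) and 0.464 (0.252 to 0.796). Htr2c, a serotonin receptor, was at 333 and 215 CPM against 625 and 582 CPM, ratios of 0.533 (0.406 to 0.687) and 0.369 (0.293 to 0.46). Of 26 neuropeptide genes, 0 reached the level needed to be counted. Sst, a peptide known in zebrafish CSF-contacting neurons, gave 0 UMIs in core both-gene members, which allows up to 16.4 CPM, and 3 in distal ones.

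Inhibitory transmitter genes chose the reference, so their levels are a description. Gad1, which makes GABA, was at 60.1 and 61.7 CPM in both-gene members against 128 and 115 CPM, and Gad2 at 71.0 and 74.0 CPM against 167 and 144 CPM. Slc6a5, the glycine transporter of glycinergic terminals, was at 43.7 and 7.40 CPM against 281 and 186 CPM, and at 24.6 and 9.10 CPM in oligodendrocyte-marker barcodes. Slc32a1, the vesicular GABA and glycine transporter, was at 16.4 and 14.8 CPM against 27.5 and 23.3 CPM. Of both-gene members, 34.1% in the core and 48.1% in the distal library held at least 1 UMI of the 4 genes, as did 13.3% and 6.58% of oligodendrocyte-marker barcodes. Over all barcodes of each library the shares were 22.2% and 12.8%, at median depths of 1303 and 1744 UMIs. Depth limits the member shares. All 11 core both-gene members above 3 times the median UMIs of their set held such a UMI, and 15 of the 44 did in all. In the distal library 72.7% of the 11 such deep members did, and 37 of the 77 did in all. The 4 genes summed to 191 and 158 CPM in both-gene members and to 165 and 80.6 CPM over all barcodes, so the core level lay near that of its library. Slc17a6, a vesicular glutamate transporter, was at 21.9 and 32.1 CPM against 34.5 and 18.0 CPM.

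Mature neuron and glutamate receptor genes had medians near the background in the core library and below it in the distal library. Beside this, distal both-gene members held 4634 against 2046 CPM of oligodendrocyte markers and 9155 against 11104 CPM of the 4 neuron markers in inhibitory barcodes, and the part of these in the medians was not tested. The 15 mature neuron genes tested had medians of the log2 ratio of -0.13 and -0.56, beside 0.03 and 0.07 over all genes tested, and 0 were past 2-fold in both libraries. The 16 ionotropic glutamate receptors tested had -0.08 and -0.60, with 4 past 2-fold lower in the distal library (Grin1, Gria1, Grin2a and Gria3). Dcx, a gene of immature neurons, was at 38.2 and 19.7 CPM against 59.5 and 61.8 CPM, and of 24 immature neuron genes 10 were tested in both libraries and 0 were past 2-fold in both. Neurod1, whose name the transgene carries and whose counts here cannot separate transgene from mouse gene, gave 0 UMIs in core both-gene members, which allows up to 16.4 CPM, and 5 in distal ones, at 12.3 CPM (4.01 to 28.8) against 7.98 CPM in inhibitory and 9.69 CPM in oligodendrocyte-marker barcodes.

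Adhesion and surface genes included some of the larger ratios. St6galnac5, a sialyltransferase of gangliosides, was at 311 and 316 CPM against 95.2 and 58.5 CPM, ratios of 3.27 (2.43 to 4.34) and 5.40 (4.08 to 7.16). Nrp2, a semaphorin receptor, was at 175 and 190 CPM against 68.8 and 71.8 CPM, ratios of 2.54 (1.70 to 3.68) and 2.65 (1.95 to 3.58). The netrin receptor Dcc had ratios of 1.71 (1.53 to 1.90) and 2.09 (1.95 to 2.25). Of 45 guidance and adhesion genes, 39 were tested in both libraries, with Nrp2 higher and Cntnap4 lower in both. Cntnap4, a contactin-associated protein of inhibitory synapses, was at 115 and 104 CPM against 251 and 229 CPM, ratios of 0.457 (0.282 to 0.704) and 0.452 (0.32 to 0.624). The other genes lower in both were Pde1a, Col11a1, Cds1 and Gm20713, and Cntnap4 alone among the 5 met the level set for naming.

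Several genes were high both in these members and in oligodendrocyte-marker barcodes. Rnf220, a ubiquitin ligase, was at 1497 and 3401 CPM against 168 and 688 CPM in inhibitory barcodes, ratios of 8.90 (7.68 to 10.3) and 4.94 (4.56 to 5.36), and at 3311 and 3167 CPM in oligodendrocyte-marker barcodes. Sox2ot, a long noncoding RNA that overlaps Sox2, was at 852 and 1362 CPM against 68.5 and 380 CPM, and at 1194 and 1418 CPM in oligodendrocyte-marker barcodes. Ror1, a Wnt receptor chosen after its values had been seen, was at 142 and 338 CPM against 25.3 and 37.9 CPM, and at 271 and 128 CPM in oligodendrocyte-marker barcodes. Mbp in the same members was at 508 and 1829 CPM, against 5059.5 and 3893 CPM in oligodendrocyte-marker barcodes. Core both-gene members thus held Rnf220, Sox2ot and Ror1 at a larger part of the oligodendrocyte-marker level than Mbp, and what causes this was not tested.

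Between the libraries, both-gene members had 382 of 3766 genes at least 2-fold higher in the core (10.1%) and 474 lower (12.6%), and inhibitory barcodes had 19 (0.524%) and 129 (3.56%) of 3623. These calls rest on the fold alone, and the both-gene sums hold 183032 and 405223 UMIs against 3560624 and 1504004 in the inhibitory sums, so the shares of called genes cannot be compared between the sets. Genes lower in the core included Xist, at 0 against 716 CPM, and the myelin gene Mog, at 16.4 against 326 CPM, a ratio of 0.0503. Mog was lower in core inhibitory barcodes too, with a ratio of 0.148. Genes higher in the core included Syt2, a synaptic vesicle protein, at 311 against 59.2 CPM (5.26, 3.21 to 8.86), and Hoxc5 at 235 against 54.3 CPM (4.33, 2.53 to 7.60), whose ratios in inhibitory barcodes were 2.11 and 2.25. Among the genes that marked both-gene members, Myo3b had a core-over-distal ratio of 0.547 (0.407 to 0.725), Espn 0.443 (0.224 to 0.811) and Meis2 0.604 (0.482 to 0.751). Slc26a4 had 1.31 (0.773 to 2.17), Gata3 1.33 (0.513 to 3.24) and St6galnac5 0.986 (0.709 to 1.36), with intervals that include 1. Animal, sex, cord level and region cannot be told apart in these ratios.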

How the data were processed

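Nuclei of frozen mouse spinal cord were profiled with 10x Genomics 3′ chemistry. Per the file headers, the deposited files are raw counts (UMIs by gene and barcode) written by Cell Ranger 7.1.0. The submitters' processing notes name Cell Ranger, Seurat, GRCh38 and mm10 without roles, and no source used here names the annotation. Of 32285 features, 32158 matched GENCODE M21 on GRCm38, which gave positions.

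Barcodes under 300 genes or above 5% mitochondrial UMIs were removed (2 core and 9 distal). No doublet caller was run and doublets were left in. Counts were summed per set and library with Python 3.11.15, numpy 2.4.6, scipy 1.17.1 and pandas 2.3.3, and drawn with matplotlib 3.10.9. Intervals are exact Clopper-Pearson, Poisson or conditional 95% intervals. Genes with a mean of at least 50 CPM over a set and its reference were counted when past 2-fold, leaving out the 2 rule genes and the 4 reference genes. A count of 0 was set to 3. The scripts were checked on counts simulated from the inhibitory profile at the real UMI totals, with counting error alone. Of genes set 4-fold higher 99% to 100% were called, and of genes set 4-fold lower 64% to 71%. For core both-gene members 44 of 3262 unchanged genes (1.35%) were called, beside 82 higher and 46 lower of 3598 in the data. For distal both-gene members 8 of 3417 unchanged genes (0.234%) were called.

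Named genes were the 16 highest and 10 lowest past 2-fold in both libraries, with at least 100 CPM and UMIs in 10% of barcodes, plus up to 4 per list with at least 10 UMIs and 6 transcription factors. Genes named outside it were chosen after their values had been seen. Members and lists were chosen with earlier results of these data known, and the both-gene set, the 3-fold search and the settings without oligodendrocyte-rich barcodes after seeing the data. For thinned shares each barcode was reduced to 1000 UMIs, and shallower ones, 8 core and 8 distal both-gene members among them, were not used. Some genes are not reported here.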

Additional observations from a re-analysis of the deposited data

How the results depend on the processing

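No paired analysis was possible because each region has 1 library. Over 42 named genes, 845 of 1064 ratios under the alternatives stayed within their interval, and 0 called ratios changed side. The cause of the changes below was not tested. Counts are of genes past 2-fold against inhibitory barcodes.

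Over all members, in the order core higher, core lower, distal higher, distal lower (72, 28, 408 and 384 as reported), a mean of at least 20 CPM gave 315, 175, 703 and 627, and 3-fold gave 24, 1, 157 and 65. Without barcodes above 3 times the median UMIs the core counts were 312 and 178, with means over nuclei 265 and 103, and without each gene's top member 44 and 68. With 4 marker UMIs the core lower count was 44, and with an inhibitory UMI the distal lower count was 165. Members with both genes gave 46 core lower, 208 distal higher and 158 distal lower, and without oligodendrocyte-rich barcodes the distal counts were 120 and 53.

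In both libraries (45 higher and 9 lower over all members), the counts were 101 and 46 without high-UMI barcodes, 80 and 25 with means over nuclei, 112 and 25 at 20 CPM, 20 and 0 at 3-fold, and 27 and 1 without oligodendrocyte-rich barcodes. The lower count was 5 with 4 marker UMIs, 2 with an inhibitory UMI, 21 without top members and 5 with both genes. For both-gene members (36 and 5), they were 21 and 3 with an inhibitory UMI, 76 and 48 without high-UMI barcodes, 67 and 22 with means, 22 and 20 without top members, 93 and 26 at 20 CPM, and 9 and 0 at 3-fold. The lower count was 1 with the reference weighted to depth and 3 without oligodendrocyte-rich barcodes.

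The distal share of members was 0.981% with 4 marker UMIs, 1.03% with both genes, 3.40% at 1000 UMIs or more and 1.23% after thinning to 1000, where the core share was 0.224%. The distal-over-core ratio was then 4.01, 3.85 and 5.50 for 4 UMIs, both genes and thinning. Core over distal, both-gene members had 382 genes higher, and without oligodendrocyte-rich barcodes 301 higher and 391 lower, against 607 and 618 over all members. Depth limits the rarer factors: core both-gene members hold 183032 UMIs in all.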
